A study of Mus musculus with 6 samples.

Results

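The transcripts described here are those of 10 Sox genes of the mouse, Sox1, Sox2, Sox3, Sox4, Sox5, Sox6, Sox8, Sox9, Sox11 and Sox21. They were chosen by symbol: every probe set annotated to exactly 1 of the 10 was read, 36 of the 45037 non-control probe sets on the array, and the 10 genes stand among 18193 genes with a probe set of their own. The signals come from 6 neural stem cell lines, 1 array per line, with 3 lines labelled FoxO-null and 3 labelled wild-type that the design text calls independent. The comparison asks which transcripts differ when neural stem cells lack FoxO transcription factors. FoxO-null is the whole genotype the labels give: which FoxO genes were deleted, by which Cre or allele, and the strain, age, brain region, passage and culture medium are not given in the sources used here. All values are MAS5 signals, the deposited linear intensities, and each fold change is FoxO-null minus wild-type on the log2(signal + 5.94) scale.

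Sox proteins bind DNA through a high-mobility-group domain related to that of Sry and are sorted into classes by the likeness of that domain. In the developing brain the SoxB1 factors (Sox1, Sox2, Sox3) hold progenitors in an undifferentiated, dividing state and usually act together with a partner such as a POU factor, while the SoxB2 factor Sox21 acts as a repressor that counters them. SoxC factors (Sox4, Sox11) switch on neuronal genes, SoxD factors (Sox5, Sox6) lack a transactivation domain and modulate other Sox proteins, and SoxE factors (Sox8, Sox9, and their relative Sox10) promote the glial fates, Sox9 at the neuron-to-glia switch and Sox10 in oligodendrocytes.

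The labels were first set against the arrays. The FoxO transcripts themselves went against the genotype: 8 of 9 probe sets for Foxo1, Foxo3 and Foxo4 had a positive log2 difference, and in 5 of them all 3 arrays labelled FoxO-null lay above all 3 labelled wild-type. Of all probe sets 53.5% were positive and 6.95% lay wholly higher in that way. A probe set outside the deleted part of a gene checks nothing, and where these lie relative to any deletion is not known here. FoxO-null and wild-type therefore stand below for lines labelled so, and every direction follows the labels. Neural stem cell markers were present, with 7 of 7 list genes above background on all 6 arrays, as were 6 of 6 astrocyte and 6 of 6 oligodendrocyte lineage genes with a probe set. Of 6 neuron markers, 5 were above background on all 6 arrays. Of 5 pluripotent cell markers, Nanog and Zfp42 lay at or under background on all 6 arrays, Pou5f1 was above it on 1, Dppa5a on 5 and Esrrb on 6. Pou5f1 read 15.5 to 32.4 in FoxO-null lines, against 1.26 to 5.81 in wild-type lines, and Esrrb 38.2 to 60.5 in FoxO-null lines, against 30.9 to 34.0 in wild-type lines. Of 5 endothelial and 5 microglial markers, 0 and 1 lay above it on all 6. Background is the highest of 27 Bacillus subtilis control probe sets on an array, and it was higher with the FoxO-null label, at 19.2 to 27.6, against 14.4 to 19.1 with the wild-type label.

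None of the 10 Sox genes passed the test of the comparison, and 8 of 10 had a higher mean in FoxO-null lines. Each gene was read from its probe set of highest mean, and all 10 lay above background on all 6 arrays. With limma and Benjamini-Hochberg adjustment over 12665 genes, adjusted p ran from 0.331 for Sox4 to 0.942 for Sox9, where 0.0395% of all genes tested passed. The median log2 difference of the 10 was 0.20, against 0.01 over all genes, and 80.0% were positive, against 51.7% of all genes. Sox4, Sox6 and Sox21 were the 3 genes in which every FoxO-null line lay above every wild-type line, and the same 3 had an unadjusted limma p under 0.05. Over all genes 8.08% had groups that did not overlap in that direction and 7.96% in the other, in which 0 of the 10 lay. An unadjusted p under 0.05 was found with a higher FoxO-null mean in 5.26% of all genes and with a lower one in 4.94%. These shares describe the list and test nothing about it. After median centring of the arrays 1 of the 10, Sox6, kept groups that did not overlap, where 4.48% of all genes did so with FoxO-null higher. That scaling put the FoxO-null lines wholly higher in 567 genes and wholly lower in 1230, against 1023 and 1008 with the deposited one, and moved the median of all genes to -0.06.

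**Figure D1:**
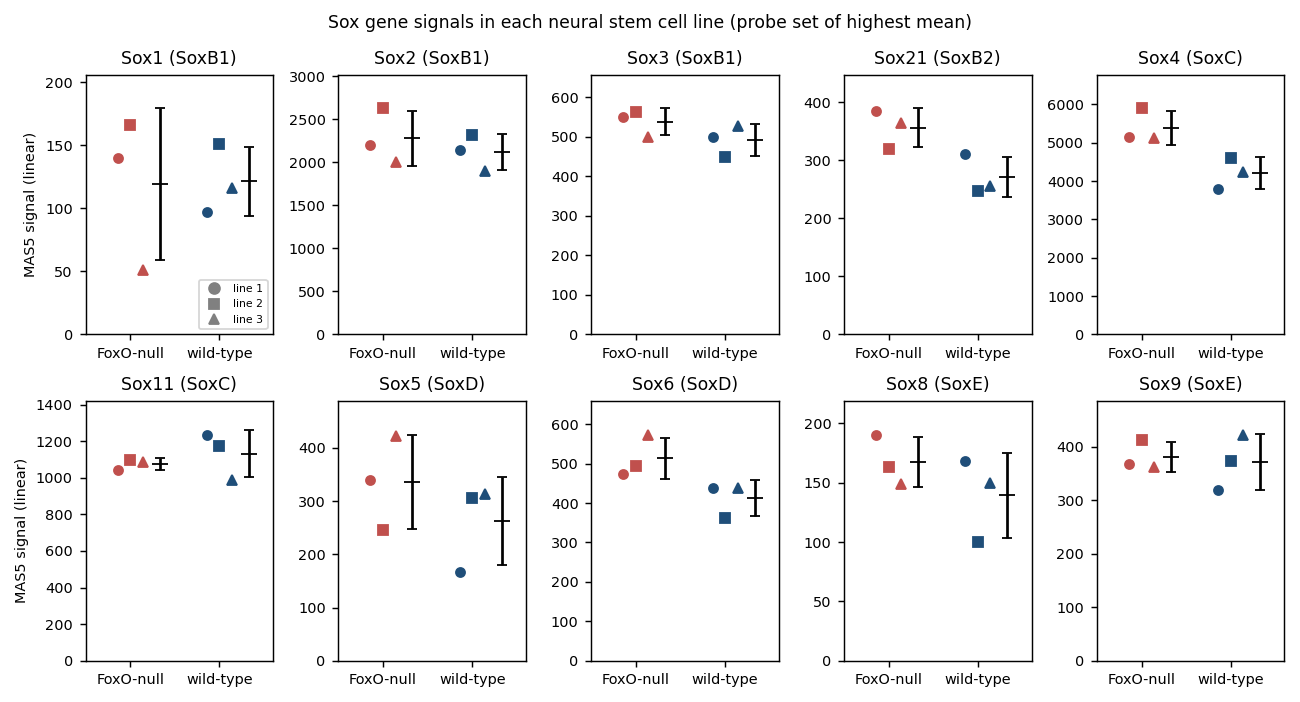
MAS5 signal of the 10 Sox genes (linear, from 0, each panel with its own scale) in the 3 FoxO-null lines (red) and the 3 wild-type lines (blue). Each point is 1 array, its shape gives the line number within its group, and black bars are means ± SD; in the Sox4, Sox6 and Sox21 panels all red points lie above all blue ones, and in the other 7 the groups overlap.

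At the level of single probe sets, too, none passed and most differences were positive. Of the 36, 27 lay above background on all 6 arrays, 8 on some and 1 on none. Log2 differences were positive in 30 and negative in 6, where 53.5% of all probe sets were positive. Groups did not overlap in 7, all with FoxO-null higher, where 6.95% of all probe sets did the same and 5.67% lay the other way. Of these 7, 4 were of Sox4 and 1 each of Sox6, Sox11 and Sox21. The 36 are repeat readings of 10 genes on the same 6 arrays, so they are not independent and such counts can rest on a single gene. None of the 36 passed after adjustment over 45037 probe sets (limma, smallest adjusted p 0.220), and 0.00222% of all probe sets passed. In 5, 3 of them of Sox4, the unadjusted limma p was under 0.05, all with FoxO-null higher. Of all probe sets 3.90% had such a p and 3.33% had one in the other direction. With median centring 4 of the 36 had groups that did not overlap in this direction, where 4.62% of all probe sets did, 2081 against 3251 in the other.

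Promoter windows of 4 members with 1 window each are shown for context: Sox4 and Sox21, whose groups did not overlap, Sox11, the SoxC partner set against Sox4 below, and Sox2, the marker of neural stem cells, whose groups overlapped. Sox6, whose groups did not overlap either, has 6 windows, and which of these starts the cells use is not measured, so none is shown. Each runs from 250 bases before to 50 bases after a RefSeq transcript start (GRCm38.p6), 5′ to 3′ along the gene. They lie at chr13:28953650-28953949, minus strand (Sox4), chr14:118236981-118237280, minus strand (Sox21), chr12:27342669-27342968, minus strand (Sox11) and chr3:34649745-34650044, plus strand (Sox2). Capitals mark matches on either strand to GTAAACA (a forkhead site), AACAAT and ACAAAG (Sox sites), ATGCAAAT (the POU octamer), CCAAT and TATAAA.
Sox4: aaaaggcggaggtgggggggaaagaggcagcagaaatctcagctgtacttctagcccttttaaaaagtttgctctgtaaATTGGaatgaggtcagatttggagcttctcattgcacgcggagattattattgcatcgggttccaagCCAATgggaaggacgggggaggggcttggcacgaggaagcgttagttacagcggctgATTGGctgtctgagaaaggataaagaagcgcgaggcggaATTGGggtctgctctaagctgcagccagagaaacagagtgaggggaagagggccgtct
Sox21: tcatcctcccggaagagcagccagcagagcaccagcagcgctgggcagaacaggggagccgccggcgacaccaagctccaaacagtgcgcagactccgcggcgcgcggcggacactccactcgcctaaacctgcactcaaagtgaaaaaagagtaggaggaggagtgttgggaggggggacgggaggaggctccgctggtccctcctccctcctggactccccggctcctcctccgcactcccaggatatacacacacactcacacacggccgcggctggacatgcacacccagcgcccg
Sox11: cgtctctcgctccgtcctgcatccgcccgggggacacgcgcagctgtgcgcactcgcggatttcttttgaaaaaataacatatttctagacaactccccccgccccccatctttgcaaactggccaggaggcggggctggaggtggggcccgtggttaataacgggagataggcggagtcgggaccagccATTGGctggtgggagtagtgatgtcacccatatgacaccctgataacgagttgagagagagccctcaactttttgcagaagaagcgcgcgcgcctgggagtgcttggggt
Sox2: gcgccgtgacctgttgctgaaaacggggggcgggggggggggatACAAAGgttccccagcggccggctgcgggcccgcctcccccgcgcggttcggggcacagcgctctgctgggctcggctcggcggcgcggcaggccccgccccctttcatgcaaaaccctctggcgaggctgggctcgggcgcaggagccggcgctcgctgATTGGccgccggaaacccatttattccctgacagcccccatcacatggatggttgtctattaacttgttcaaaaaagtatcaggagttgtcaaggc
The Sox4 window held 4 CCAAT matches, starting 171, 104, 47 and 8 bases before the start. Those of Sox11 and Sox2 held 1 each, 60 and 46 bases before it, and Sox2 also held 1 ACAAAG, 206 bases before. The Sox21 window held none of these letters. No marked matches overlapped one another in these windows. Among 32851 windows of this length 37.4% held CCAAT, 18.7% ACAAAG, 10.7% AACAAT, 13.6% TATAAA, 1.74% ATGCAAAT and 3.65% GTAAACA. The table matched 8 of the 10 genes with 13 windows, 6 of them of Sox6, and Sox3 and Sox9 had none. GTAAACA was in 0 of the 13, ACAAAG in 6 (5 of Sox6 and that of Sox2) and ATGCAAAT in 1, that of Sox1. A match is a run of letters, not a bound site, and the arrays do not measure binding.

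In all 3 SoxB1 genes the groups overlapped. Sox2, which maintains self-renewal of neural stem cells, read 2205, 2625 and 2004 in FoxO-null lines 1 to 3, against 2148, 2319 and 1899 in wild-type lines 1 to 3. The groups interleaved: both line 2 arrays were highest and both line 3 arrays lowest within their group. The difference was 0.10 ± 0.13 (log2, SE; 95% confidence interval -0.18 to 0.38), with means of 2278 ± 317 and 2122 ± 211 (SD, n = 3 each). Without FoxO-null 2 it was -0.01. Sox2ot, the transcript within which Sox2 lies, read 71.7, 80.3 and 43.8 in FoxO-null lines, against 65.7, 75.3 and 49.8 in wild-type lines. It too was highest in line 2 and lowest in line 3 of each group, and its difference was 0.01 ± 0.26 (limma adjusted p 0.993).

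Sox3, the X-linked SoxB1 gene, read 551, 563 and 499 in FoxO-null lines and 500.3, 449 and 528 in wild-type lines. Its highest array was 1.25 times its lowest, and the difference was 0.13 ± 0.12 (95% confidence interval -0.13 to 0.38, limma adjusted p 0.759). The second Sox3 probe set, 1450485_at, had a difference of 0.10 ± 0.20. Sox1, the SoxB1 gene of early neural commitment, varied more than any other member. It read 139.7, 166 and 51.4 in FoxO-null lines, against 96.9, 151 and 116 in wild-type lines, so that FoxO-null 2 was the highest and FoxO-null 3 the lowest of the 6. The SD of its log2 values over the 6 arrays exceeded that of 90.1% of the genes tested, and those of Sox2 and Sox3 exceeded 22.4% and 8.57%. The group difference of Sox1 was -0.15 ± 0.35 (95% confidence interval -0.91 to 0.61, limma adjusted p 0.916), 0.34 without FoxO-null 3 and 0.01 without wild-type 2.

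The other Sox1 probe set, 1422205_at, was lowest in line 3 of both groups. It read 55.1, 40.9 and 6.15 in FoxO-null lines and 29.9, 34.4 and 2.27 in wild-type lines, and both line 3 arrays lay under background. For Sox2 and Sox1, the genes whose 6 values were most alike were taken by the distance between mean-centred log2 values among the genes tested. They were Zfp267, Hagh and Lsm14b for Sox2 (distances of 0.06, 0.08 and 0.09) and Atg4a, Spint2 and Agbl4 for Sox1 (0.27, 0.31 and 0.36), over 6 arrays. The median distance of all named genes was 0.67 for Sox2 and 1.40 for Sox1. On FoxO-null 3, the lowest array for Sox1, Spint2 read 11.6 and Agbl4 5.64, both under the background of 26.9 on that array. Among 12665 genes some match 6 values closely, and the list carries no test.

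Sox21, the SoxB2 repressor, was higher in every FoxO-null line at its brighter probe set. It read 384, 319 and 365 in FoxO-null lines, against 310.4, 247 and 256 in wild-type lines, a difference of 0.39 ± 0.14 (95% confidence interval 0.09 to 0.69, limma adjusted p 0.367). The gap between groups was small, since FoxO-null 2 and wild-type 1 lay next to each other, and the groups overlapped after median centring. The other Sox21 probe set, 1437059_at, did not follow it. It read 122, 251 and 119 in FoxO-null lines, against 255, 189 and 17.6 in wild-type lines, and its difference of 0.59 ± 0.67 rested on wild-type 3, without which it was -0.49.

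**Figure D2:**
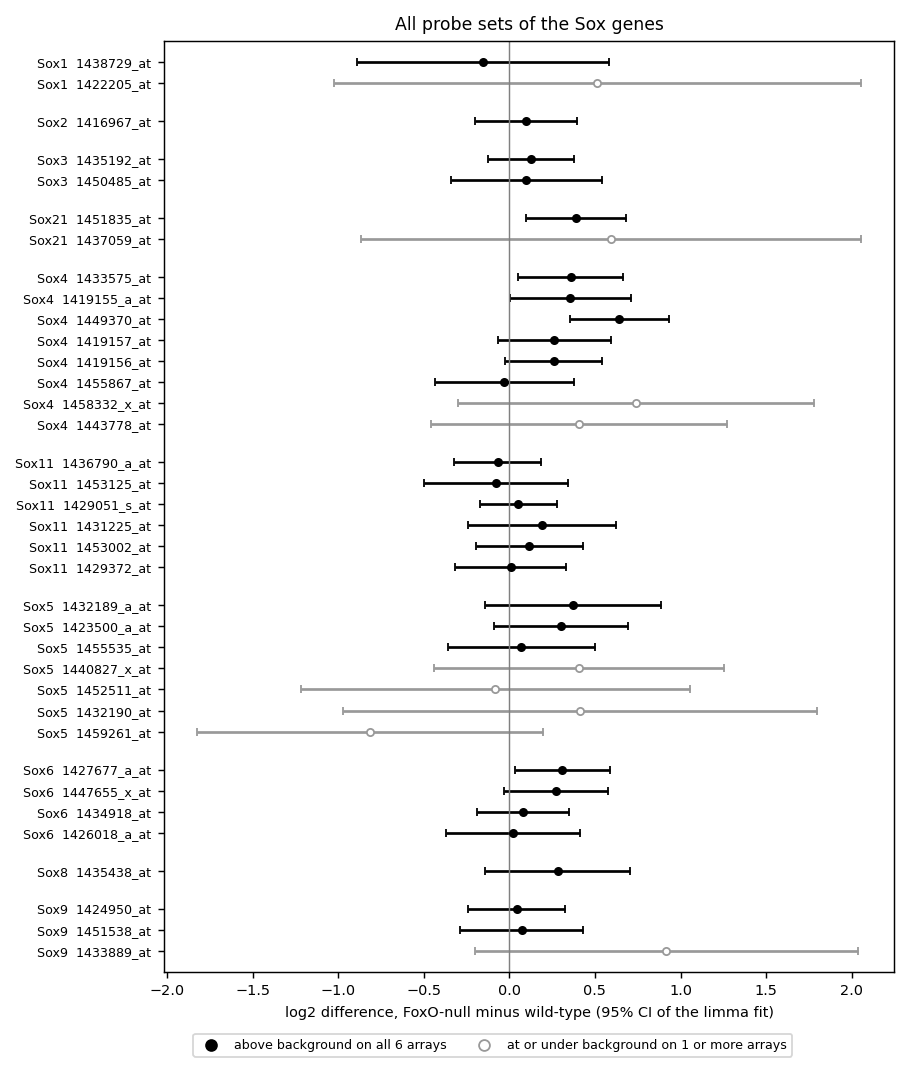
Log2 difference (FoxO-null minus wild-type, x axis) of all 36 Sox probe sets with the 95% confidence interval of the limma fit over 45037 probe sets, grouped by gene. Filled points were above background on all 6 arrays and open points were not; most points lie right of 0, and Sox4 1449370_at has the interval farthest from 0, 0.35 to 0.93.

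Of the SoxC genes, Sox4 had separate groups in 4 of its 8 probe sets and Sox11 in 1 of 6. Sox4 carries committed progenitors toward neurons and is also active in many dividing cells. Its brightest probe set, 1433575_at, read 5142, 5895 and 5116 in FoxO-null lines, against 3786, 4606 and 4227 in wild-type lines. The lowest FoxO-null array was thus above the highest wild-type array, and wild-type 1 was the lowest of all. Means were 5385 ± 443 and 4206 ± 410.4 (SD, n = 3 each), a difference of 0.36 ± 0.12 (95% confidence interval 0.10 to 0.62, limma adjusted p 0.331).

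The largest Sox4 difference among the probe sets above background was that of 1449370_at. It read 1488, 1691 and 1423 in FoxO-null lines, against 864, 934 and 1162 in wild-type lines. The difference was 0.64 ± 0.13, with an unadjusted limma p of 0.000401 and an adjusted p of 0.220 over all probe sets. The groups of 1419155_a_at also did not overlap, with 2205, 2211 and 2497 in FoxO-null lines, against 1357, 1964 and 2172 in wild-type lines (0.36 ± 0.16). In 1419156_at the lowest FoxO-null array, at 768, was close to the highest wild-type array, at 755 (0.26 ± 0.13). These 3 probe sets kept separate groups after median centring, and 1433575_at did not.

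The remaining Sox4 probe sets had overlapping groups, and some were too dim to read. In 1419157_at the difference, 0.26 ± 0.15, was close to that of 1419156_at. Its groups overlapped because wild-type 2, at 1403, was the highest array. In 1455867_at they overlapped throughout, at 152, 241 and 217 in FoxO-null lines, against 171, 204 and 243 in wild-type lines (-0.03 ± 0.19). The other 2, 1458332_x_at and 1443778_at, were above background on 1 array and on 0, so their folds are not interpreted. A name ending in x_at marks a probe set with probes that also match other transcripts, a_at one shared by transcript variants of a gene, and s_at one shared by several transcripts.

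Sox11, the other SoxC gene, supports survival and differentiation of newborn neurons together with Sox4. Its brightest probe set, 1436790_a_at, read 1040, 1098 and 1086 in FoxO-null lines and 1235, 1174 and 989 in wild-type lines. The FoxO-null arrays lay inside the range of the wild-type arrays, and the difference was -0.07 ± 0.11 (95% confidence interval -0.32 to 0.18, limma adjusted p 0.877). All 6 Sox11 probe sets were above background on all 6 arrays, and their differences ran from -0.08 to 0.19. Groups separated in 1 of them, 1429051_s_at, whose 6 arrays spanned 542 to 585, a difference of 0.05 ± 0.10, and they overlapped after quantile normalization or median centring.

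Because Sox4 and Sox11 are paralogs, the signal of one was followed relative to the other within each array, as was done for 6 pairs of members of one class chosen after the data were seen. Each gene was read from its brightest probe set. The log2 ratio of Sox4 to Sox11 was then higher in every FoxO-null line than in any wild-type line, by 0.43 on average, or 0.29 to 0.53 with 1 array left out. The exact two-sided permutation p was 0.1, the smallest that 3 lines against 3 can give, and 0.6 after Benjamini-Hochberg adjustment over the 6 pairs. This separation depended on the probe set. Sox11 1453125_at read 748 in FoxO-null 2 and 452 in wild-type 3, and relative to it Sox4 1433575_at was lower in FoxO-null 2 than in wild-type 3. The other 5 pairs had overlapping ratios and exact permutation p of 0.5 or more: the differences were -0.25 for Sox1 and Sox2, -0.28 for Sox1 and Sox3, -0.03 for Sox2 and Sox3, 0.06 for Sox5 and Sox6 and 0.24 for Sox8 and Sox9, each the first gene minus the second.

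**Figure D3:**
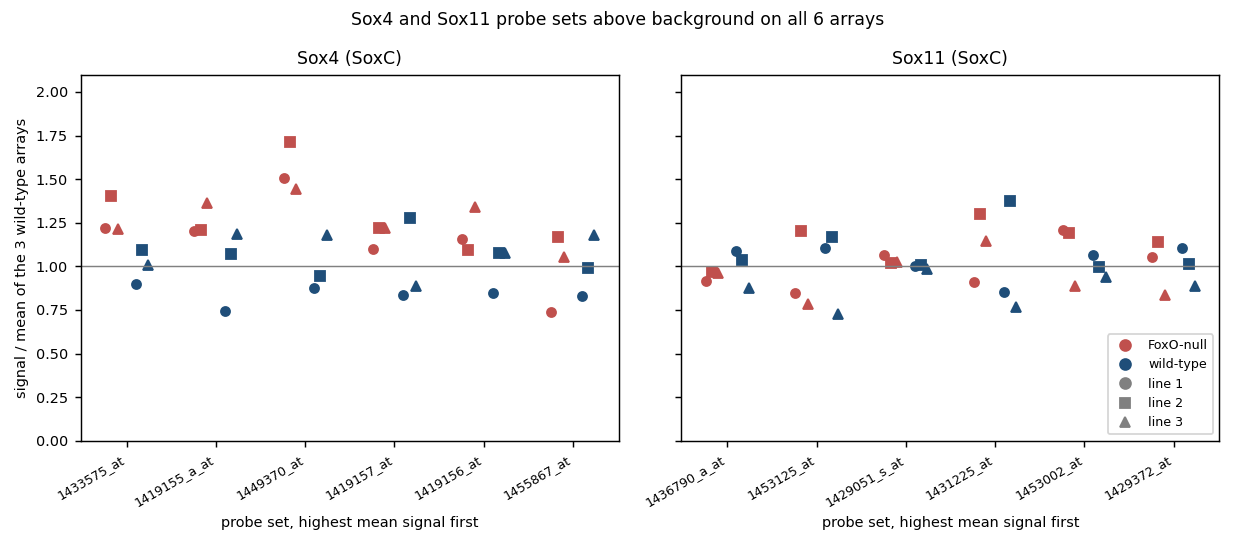
Signal of the Sox4 (left) and Sox11 (right) probe sets above background on all 6 arrays, each divided by the mean of the 3 wild-type arrays for that probe set (linear axis from 0). Red points are FoxO-null and blue points wild-type lines, and shapes give the line number; red lies wholly above blue in 4 of the 6 Sox4 probe sets drawn and in 1 of the 6 Sox11 probe sets, 1429051_s_at, whose points lie close to 1.

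The SoxD genes differed in how far the lines spread, since the SD of the 6 log2 values exceeded that of 82.2% of genes for Sox5 and of 39.7% for Sox6. Sox5 delays precocious oligodendrocyte maturation and helps set cortical neuron identity. It read 339, 246 and 423 in FoxO-null lines, against 167, 306 and 313 in wild-type lines. FoxO-null 3 was the highest and wild-type 1 the lowest, 2.53 times apart, and FoxO-null 2 lay below both wild-type 2 and wild-type 3. The difference was 0.37 ± 0.24 (95% confidence interval -0.16 to 0.91, limma adjusted p 0.633), and 0.08 without wild-type 1. The next Sox5 probe sets by signal, 1423500_a_at and 1455535_at, had differences of 0.30 ± 0.18 and 0.07 ± 0.20. The other 4 were at or under background on at least 1 array, and their differences ran from -0.81 to 0.41. Both ends of that range came from dim probe sets. The lowest, 1459261_at, was above background on 1 array, a wild-type array, and the highest, 1432190_at, on 2 arrays.

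Sox6, the second SoxD gene and a partner of Sox5 in the oligodendrocyte lineage, had separate groups at 1 of its 4 probe sets. At 1427677_a_at it read 473, 493 and 573 in FoxO-null lines, against 439, 361 and 439 in wild-type lines. All FoxO-null lines were above all wild-type lines, under the deposited scaling, quantile normalization and median centring alike. The difference was 0.31 ± 0.13 (95% confidence interval 0.03 to 0.59, limma adjusted p 0.442). The other 3 Sox6 probe sets had overlapping groups. Of these, 1447655_x_at had a difference of 0.27 ± 0.14, 1434918_at one of 0.08 ± 0.12 and 1426018_a_at one of 0.02 ± 0.18. Sox6os, named for the opposite strand of Sox6, was under background on all 6 arrays.

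The SoxE members overlapped between groups. Sox9, which starts gliogenesis and marks astrocytes and neural stem cells, read 368, 414 and 362 in FoxO-null lines and 319, 374 and 423 in wild-type lines. Wild-type lines held both the highest and the lowest array, and the difference was 0.04 ± 0.13 (95% confidence interval -0.25 to 0.34, limma adjusted p 0.942). It turned to -0.02 when FoxO-null 2 was left out and to -0.06 when wild-type 1 was. A second probe set, 1451538_at, had a difference of 0.07 ± 0.16. The third, 1433889_at, was above background on 1 of 3 FoxO-null arrays and 0 of 3 wild-type arrays. It read 14.1, 19.1 and 44.6 in FoxO-null lines and 4.75, 8.39 and 18.6 in wild-type lines, so the groups overlapped, and no fold is given. Sox8, which shares roles with Sox9 and Sox10 in glial development, read 191, 163 and 149 in FoxO-null lines, against 169, 99.7 and 149.9 in wild-type lines. Wild-type 2 stood lowest, and without it the difference of 0.28 ± 0.20 (limma adjusted p 0.668) was 0.07.

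**Figure D4:**
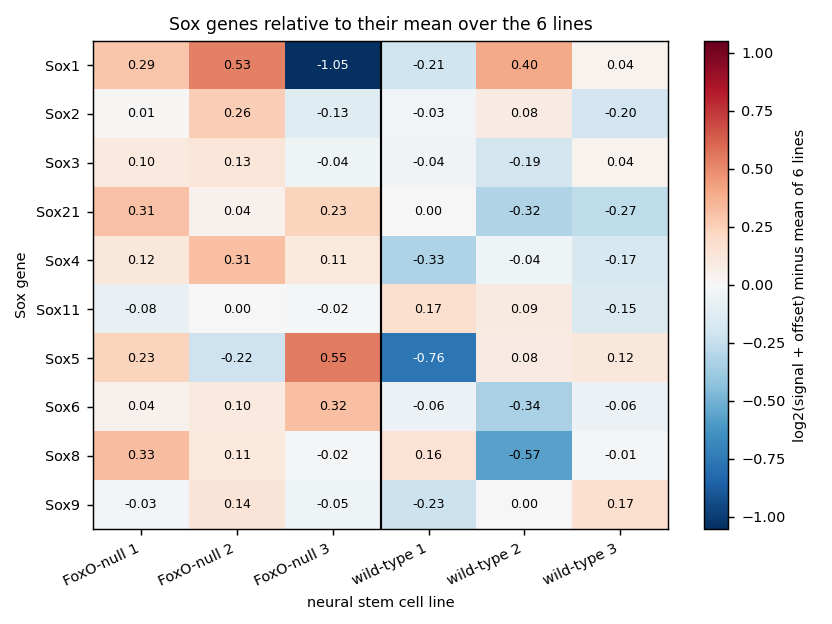
Log2(signal + offset) of each Sox gene in each line minus the gene's mean over the 6 lines, FoxO-null lines left of the vertical line and wild-type lines right of it. Red is above and blue below the mean; the largest deviations were Sox1 in FoxO-null 3 at -1.05, Sox5 in wild-type 1 at -0.76 and Sox8 in wild-type 2 at -0.57.

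Seen by line, the lowest array of a Sox gene was a wild-type line in 9 of 10 genes and FoxO-null 3, for Sox1, in the other. Wild-type 2 was the lowest for 4 genes (Sox3, Sox6, Sox8 and Sox21), wild-type 1 for 3 (Sox4, Sox5 and Sox9) and wild-type 3 for 2 (Sox2 and Sox11). The highest array was FoxO-null 2 for 4 genes (Sox1, Sox2, Sox3 and Sox4). The median deviation of the 10 genes from their own means was 0.11 on FoxO-null 1, 0.12 on FoxO-null 2 and -0.02 on FoxO-null 3, against -0.05, -0.02 and -0.03 on wild-type 1 to 3. No line was low or high for all members.

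Outside the 10, the largest difference among the 3 family members past the filter on low signals was that of Sox10, the SoxE factor that drives oligodendrocyte maturation. It read 803, 614 and 772 in FoxO-null lines, against 322, 332 and 495 in wild-type lines. All FoxO-null lines were above all wild-type lines at each of its 3 probe sets and under each scaling. The difference of 0.94 ± 0.17 (95% confidence interval 0.56 to 1.31) had a limma adjusted p of 0.109. It passed in 1 of 15 alternatives, at 1.13 with a limma adjusted p of 0.0281. That run left out wild-type 3, the highest wild-type array. Without FoxO-null 1 the limma adjusted p was 0.537, the largest of the 15. Sox12, of SoxC, read 398, 323 and 386 in FoxO-null lines and 366, 323 and 359.6 in wild-type lines (0.07 ± 0.13). Sox13, of SoxD, had a difference of -0.14 ± 0.19. The other 7 genes, Sox7, Sox14, Sox15, Sox17, Sox18, Sox30 and Sry, were left out by the filter on low signals and read at most 28.9 on any array. Among them Sox15 and Sox18 were wholly higher in FoxO-null lines, but Sox15 was above background on 1 array and Sox18 on 0.

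The summed signals of both glial marker lists were higher in every FoxO-null line than in any wild-type line, though 1 of their 12 genes passed the test. The summed signal of the 6 measured oligodendrocyte lineage markers was 15602 to 16422 in FoxO-null lines, against 13102 to 14484 in wild-type lines, with 4 of 6 positive. Among them Cnp, a myelin enzyme, rose by 0.87 ± 0.12 (limma adjusted p 0.0471), a call kept under 4 of 15 alternatives, with adjusted p up to 0.485. The lineage factors Olig2 and Olig1 were at -0.18 ± 0.11 and -0.08 ± 0.12. A sum of linear signals follows its bright genes most. In FoxO-null and wild-type lines the mean signals were 4429 and 2976 for Mbp, 2501 and 1364 for Cnp, and 6703 and 7099 for Olig1. The summed signal of the 6 astrocyte markers was 4026 to 4748 in FoxO-null lines, against 3069 to 3578 in wild-type lines, with 5 of 6 positive. Among these Glul, glutamine synthetase, was at 0.89 ± 0.13 (limma adjusted p 0.0504). All markers of both glial lists were above background on every array. The 7 neural stem cell markers, Sox2 among them, summed to 31012 to 34505 in FoxO-null lines and 24642 to 32679 in wild-type lines, which overlap. Of these, 0 passed in limma, 5 were positive, and the median difference of 0.27 was close to the 0.26 of the oligodendrocyte list and the 0.31 of the astrocyte list. Slc1a3, Msi1 and Prom1 were wholly higher in FoxO-null lines, with unadjusted limma p under 0.05. Over all genes 8.08% were wholly higher and 5.26% had such a p with a higher mean. Nes and Vim went the other way, at -0.36 ± 0.17 and -0.08 ± 0.15, with overlapping groups. The 6 neuron markers summed to 242 to 312.2 in FoxO-null lines and 299.5 to 312.8 in wild-type lines. Wholly higher sums in FoxO-null lines were not particular to the glial lists. The pluripotent cell markers summed to 102.6 to 110.0, against 53.8 to 90.8 in wild-type lines. A neural crest and mesenchyme list, Sox10 among it, summed to 690 to 904, against 377 to 620. The POU and Pax partners read below summed to 1732 to 2135, against 1449 to 1717. The sums of the microglial and endothelial markers overlapped. The part of cell makeup, of background level or of sample handling in the differences of Sox4, Sox6, Sox21 and Sox10 was not tested, and in these bulk samples fewer cells of a type and less RNA per cell cannot be told apart.

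Partners and target genes of Sox factors were read from lists. Their counts stand beside the shares over all genes given above, 51.7% positive and, at an unadjusted p under 0.05, 5.26% higher and 4.94% lower. The target lists share genes with the marker lists above, so the counts are not separate readings. Mbp and Pdgfra are also oligodendrocyte lineage markers, Nes is also a neural stem cell marker, and Tubb3 and Dcx are also neuron markers. Of 5 measured POU and Pax partners of SoxB1, 0 passed in limma (1 unadjusted) and 2 were positive. Pou3f3, a POU factor of upper-layer progenitors, read 1665, 1334 and 1367 in FoxO-null lines, against 1246, 994 and 1089 in wild-type lines (0.39 ± 0.13, limma adjusted p 0.321). Pou3f2 was at -0.40 ± 0.22, Pax6, the dorsal progenitor factor, at 0.24 ± 0.17, and Pou3f1 at -0.30 ± 0.31. With all probe sets of a gene averaged, Pou3f2 was at 0.05 and Pax6 at -0.05.

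Of 11 SoxB1 target genes, Hes5 passed as higher and 0 as lower, with 8 of 11 positive and a median of 0.15. Hes5, a repressor under Notch control that holds back differentiation, read 406, 349 and 295 in FoxO-null lines, against 114, 134 and 133 in wild-type lines (1.41 ± 0.15, limma adjusted p 0.0157). It did not pass without FoxO-null 1 (0.189), with median centring (0.0607) or without the intensity trend (0.485). Nr2e1, the orphan receptor Tlx of adult neural stem cells, was at 0.67 ± 0.17 (limma adjusted p 0.214). The Notch ligand gene Jag1 was at -0.63 ± 0.17 (0.249) and the filament gene Nes at -0.36 ± 0.17 (0.491). Of 8 measured SoxE target genes, 0 passed in limma (3 unadjusted, all higher) and 6 were positive, with a median of 0.30, against 0.01 over all genes. Mmd2, which Sox9 and Nfia switch on in glial precursors, read 1756, 1201 and 1377 in FoxO-null lines, against 471, 682 and 898 in wild-type lines (1.10 ± 0.21, limma adjusted p 0.123). It passed in 1 of 15 alternatives, without wild-type 3, its highest wild-type array (limma adjusted p 0.0398). Without FoxO-null 1 the limma adjusted p was 0.537, the largest of the 15. Mbp, of myelin, was at 0.59 ± 0.14 (0.196), Pdgfra, of oligodendrocyte precursors, at 0.41 ± 0.18 and Apcdd1, a Wnt inhibitor, at -0.57 ± 0.35.

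Of 4 SoxC target genes tested, 0 passed in limma (1 unadjusted, lower), and the median was -0.12. Tubb3 and Tead2 were negative, Dcx was positive, and Map2 was near 0 with a sign that turned with quantile normalization. The neuronal tubulin gene Tubb3 read 27.5, 31.1 and 39.6 in FoxO-null lines, against 62.9, 58.2 and 42.1 in wild-type lines (-0.64 ± 0.27, limma adjusted p 0.452), so every FoxO-null line was below every wild-type line. Tead2, a Hippo pathway factor, was at -0.24 ± 0.16, Dcx, of migrating neurons, at 0.16 ± 0.22 and Map2, of dendrites, at -0.01 ± 0.12. Whether the target lists differ from other genes was not tested.

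**Figure D5:**
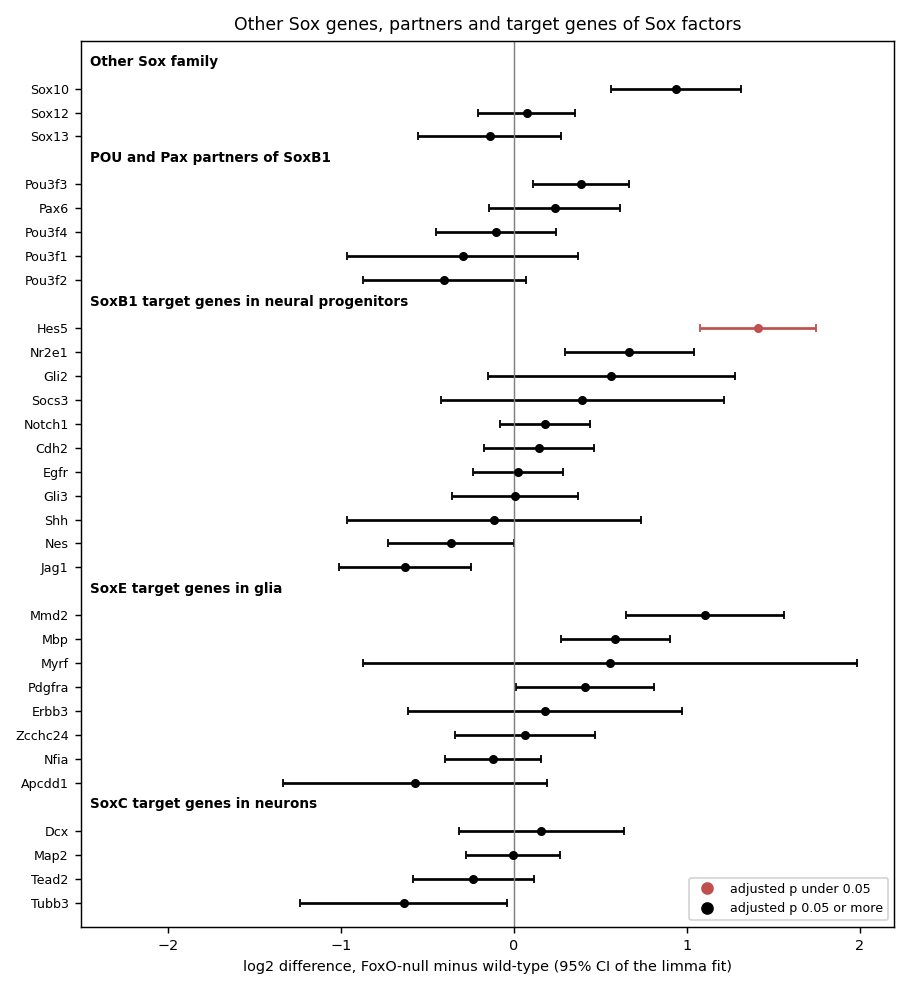
Log2 difference (FoxO-null minus wild-type, x axis) with the 95% confidence interval of the limma fit over 12665 genes for other Sox genes, SoxB1 partners and target genes of SoxB1, SoxE and SoxC that passed the filter on low signals. Red marks an adjusted p under 0.05; Hes5 alone is red, and Sox10 and Mmd2 have the next largest differences, 0.94 and 1.10.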

How the data were processed

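The authors deposited linear intensity signals of 6 arrays. The submitters' processing notes name MAS5, and its version and further steps are not given in the sources used here. The mean after trimming 2% of values at each end was 100 on each array and array medians differed by up to 1.29 times, so no rescaling was applied.

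Signals became log2(signal + 5.94), an offset at the 20th percentile of all values that understates changes of dim genes. Each gene was its probe set of highest mean log2 value, and genes under the 40th percentile (a signal of 16.2) were left out, which leaves 12665. Members were also read in an unfiltered fit of 45037 probe sets. Of 45101 probe sets 64 were controls, 34945 had 1 gene in the platform annotation, 932 several and 9160 none, and 0 symbols needed updating. The fits used limma 3.58.1 (lmFit, eBayes with intensity trend, no covariates) in R 4.3.3, two-sided, at a Benjamini-Hochberg adjusted p under 0.05, and were tested on simulated data. P-values set the group difference against the spread between lines, with variances that eBayes draws together over all features. With 1 array per line, spread between lines and spread between arrays cannot be told apart. The number of arrays limits precision.

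Named genes are all Sox genes, up to 4 per list by p, Foxo1, Foxo3 and Foxo4, and the 3 genes most like Sox2 and the most variable member. Genes beyond that rule (the cell markers) were named after their values were seen. Members and lists were chosen with earlier results of these data known. Alternatives were other offsets, filters, scalings, prior variance and probe set rules, a replicate block and leaving out each array.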

Additional observations from a re-analysis of the deposited data

How the results depend on the processing

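No Sox gene or probe set passed in limma under any alternative run, 150 values at gene level (smallest adjusted p 0.243, Sox4 with the replicate block) and 463 at probe set level (0.159, Sox4 1449370_at without wild-type 3). The number of all genes called, 5, was 1 with offset 1, quantile normalization, no filter or the mean of all probe sets, 0 with median centring or without the intensity trend, and 0 to 13 with 1 array left out. The number of all probe sets called, 1, was 0 with offset 32, median centring, no trend or the replicate block, and 0 to 1 with 1 array left out. Same-numbered lines had correlations of 0.02, 0.09 and 0.12 of their deviations. Lines of unlike number were not compared, so these values do not decide whether same-numbered lines are paired. No Sox gene passed in limma with the replicate block or without it, and the adjusted p of Sox4 was 0.243 with it, against 0.331 without.

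Median centring left 1 Sox gene and 4 Sox probe sets with FoxO-null wholly above wild-type. With 1 array left out, 8 to 13 probe sets lay so, while 0 to 1 genes and 0 to 1 probe sets lay wholly below, fewer arrays making separation easier. Some signs turned, mostly of small differences, and the cause was not tested. With 1 array left out, this also held for 0.59 for Sox21 1437059_at, 0.51 for Sox1 1422205_at and 0.41 for Sox5 1432190_at and Sox4 1443778_at. Of these, Sox4 1443778_at was at or under background on all 6 arrays and the rest on at least 1. Median centring gave -0.026 for Sox9 (also its 1424950_at), -0.048 for Sox6 1426018_a_at, -0.016 for Sox11 1429051_s_at and -0.061 for Sox11 1429372_at. Quantile normalization gave 0.0060 for Map2, and offset 32 gave 0.0050 for Sox5 1452511_at. The mean of all probe sets gave 0.18 for Sox1, 0.037 for Sox11, -0.047 for Pax6 and 0.045 for Pou3f2.

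With 1 array left out, differences ran from -0.46 to 0.34 for Sox1 (1438729_at), -0.22 to 1.23 for its 1422205_at, -0.0083 to 0.19 for Sox2 (1416967_at), -0.037 to 0.29 for Sox3 1450485_at and -0.49 to 1.24 for Sox21 1437059_at. They ran from -0.019 to 0.69 for Sox4 1443778_at, -0.16 to 0.16 for Sox4 1455867_at, -0.083 to 0.13 for Sox11 1429372_at and -0.29 to 0.046 for Sox11 1453125_at. They ran from -0.20 to 0.96 for Sox5 1432190_at, -0.48 to 0.45 for Sox5 1452511_at, -0.065 to 0.23 for Sox5 1455535_at and -0.16 to 0.14 for Sox6 1426018_a_at. They ran from -0.062 to 0.14 for Sox9 (1424950_at), -0.11 to 0.19 for its 1451538_at, -0.024 to 0.30 for Dcx and -0.075 to 0.12 for Map2. Signal near background limits 9 of the 36 probe sets.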
